A study of Equus caballus with 15 samples.

Results

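The genes of glycolysis and of the cellular response to low oxygen were followed across 5 conditions of equine macrophage culture. They were chosen by name as a list of 43 genes, namely the hypoxia inducible factors (HIF) with the enzymes that sense oxygen for them, the transporters of glucose and lactate, the enzymes of glycolysis, the kinases that set its rate, and HIF targets that lie outside glycolysis. Of these, 41 were analysed among the 16932 genes listed, and VHL and SLC2A3 were not analysed here. The rule goes by name and uses no measured value. All 41 had a mean of at least 1 CPM (counted reads scaled to the library total) over all libraries and were tested among 11628 genes.

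Glycolysis splits glucose to pyruvate in the cytosol, and lactate dehydrogenase turns pyruvate into lactate when it does not enter mitochondria. HIF is a pair of an alpha subunit, either HIF1A or EPAS1, and ARNT, and prolyl hydroxylases of the EGLN family mark the alpha subunit for destruction while oxygen is present, so HIF activity is set mainly through protein that mRNA does not show. Macrophages that meet inflammatory stimuli are known for raising glucose uptake and glycolysis, and most glycolytic enzymes are also HIF targets.

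Monocytes from the blood of horses were grown into macrophages for 5 days with 30 ng/ml human M-CSF, a growth factor of macrophages. Untreated macrophages received no IL-1ß, a cytokine of joint inflammation, and the other conditions received it at 10 ng/ml for 24 h. In 3 of these conditions an orthobiologic therapy (OT) was added together with IL-1ß as 25% of the medium, either the lysate of a plasma enriched in platelets (PRP lysate), medium conditioned by bone marrow mesenchymal stromal cells (MSC-CM) or autologous conditioned serum (ACS), a serum prepared by incubating blood. Each condition was sequenced as 3 libraries of polyadenylated RNA. All macrophages came from 2 geldings, of 3 and 5 years of age, and the sources do not say how these donors fall over the libraries. The OTs came from 3 other horses. The OT libraries are therefore replicates of the product, while those of IL-1ß and untreated macrophages are described by the study as technical replicates, so p-values measure the spread between these libraries and not between macrophage donors. After the 24 h the labels give washing and collection, whereas the methods give a further day of culture before it.

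The libraries held 28410735 to 47894068 reads counted on genes, so 1 CPM stood for 28.4 reads in the shallowest and 47.9 in the deepest. Of 15 macrophage markers 14 were analysed, and their summed level was 3685 to 9162 CPM across libraries, with CD68 at a mean of 1674 CPM and MRC1 at 2109 CPM, while CD14 had 2.49 CPM and ITGAM 2.36 CPM. T cell markers summed to 1057 to 1971 CPM, with CD3E at a mean of 255 CPM, so lymphocyte RNA was present in every library, and stromal cell markers summed to at most 2.94 CPM. IL-1ß replicate 3, PRP lysate replicate 1 and MSC-CM replicate 1 stood apart from the rest on the first principal component (-103, -51.7 and -20.7, the others -8.15 to 26.6). In these libraries 66 cytosolic ribosomal protein genes summed to 66438, 51012 and 47418 CPM, against 27341 to 39502 CPM elsewhere. Counting reads shows RNA as a share of the library, so fewer cells of a type and less RNA per cell cannot be told apart in these bulk samples.

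The 41 genes together took a like share of each library, from 17549 CPM in PRP lysate replicate 2 to 22592 CPM in IL-1ß replicate 3. Their spread was widest with IL-1ß, where the median SD over the 3 libraries was 0.368 on the log2(CPM + 1) scale, 0.310 with PRP lysate, 0.156 with MSC-CM, 0.152 in untreated macrophages and 0.124 with ACS. Over all genes tested the order of the 2 widest was the same, with median SDs of 0.437 with IL-1ß, 0.326 with PRP lysate, 0.199 in untreated macrophages, 0.191 with MSC-CM and 0.135 with ACS. For 28 of the 41 genes the IL-1ß condition had the largest SD of the 5, as it had for 61% of all genes. In the heat map of all members, IL-1ß replicate 3 parts from the other IL-1ß columns in many rows.

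**Figure D1:**
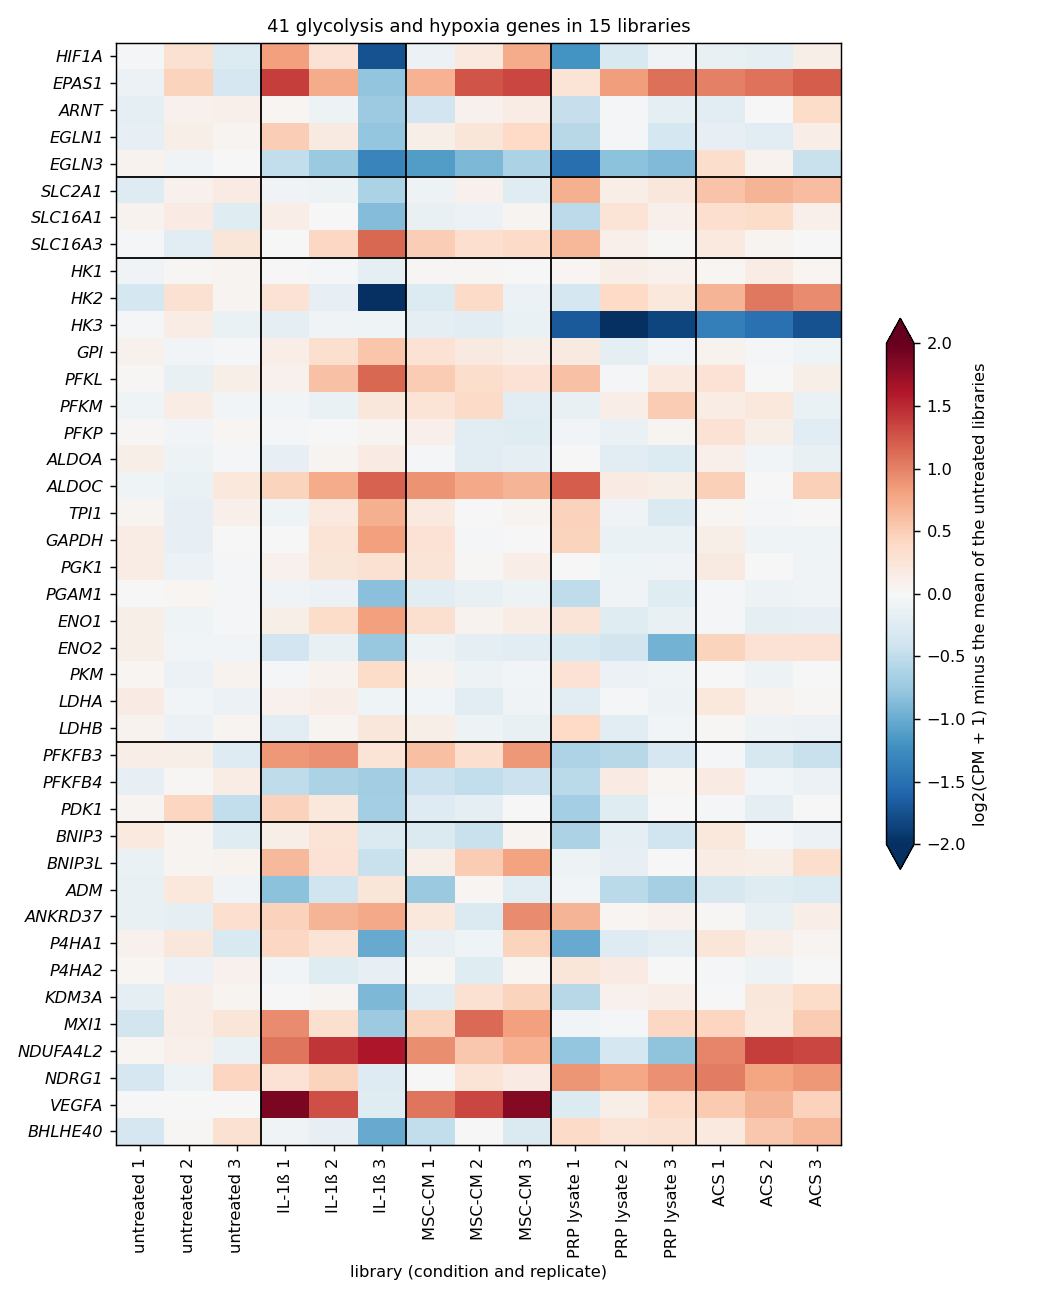
Each cell is the log2(CPM + 1) of 1 of 41 genes (rows, in role groups parted by lines from HIF and its sensors at the top to HIF targets at the bottom) in 1 of 15 libraries (columns) minus that gene's mean in the 3 untreated libraries. Red is higher and blue is lower, with colours ending at 2 in either direction. HK3 is blue in all 6 PRP lysate and ACS libraries, NDUFA4L2 is red in all IL-1ß, MSC-CM and ACS libraries and blue in the 3 PRP lysate libraries, and IL-1ß replicate 3 parts from the other IL-1ß libraries in HIF1A, EPAS1, HK2 and VEGFA.

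Log2 fold changes are differences of mean log2(CPM + 1) and are given with their standard error, from limma with Benjamini-Hochberg adjustment over all genes tested in a comparison. A gene was called at an adjusted p of at most 0.05 with at least a 2-fold change. IL-1ß alone raised 1 of the 41 genes, NDUFA4L2, against 0.292% of all genes called, and 1 passed on adjusted p alone against 0.387% of all genes. The 3 IL-1ß libraries lay beyond all untreated libraries in 10 of the 41 genes, 6 higher, against 7.98% of all genes, and 4 lower, against 8.22% of all genes. With MSC-CM added to IL-1ß no member was called, as 0% of all genes were, on either criterion. At an unadjusted p under 0.05 there was 1 member, and DESeq2 and edgeR on recovered reads called 0. All 3 MSC-CM libraries lay above the IL-1ß libraries in 1 member, against 7.25% of all genes, and below them in 1 member, against 1.54% of all genes.

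PRP lysate added to IL-1ß lowered 3 members, namely HK3, PFKFB3 and NDUFA4L2, against 3.09% of all genes called, and the same 3 passed on adjusted p alone, against 4.94%. Its libraries lay apart from those of IL-1ß in 9 members, 5 higher, against 8.50% of all genes, and 4 lower, against 6.47% of all genes. ACS lowered 1 member, HK3, against 2.21% of all genes called. On adjusted p alone 4 passed with ACS, against 3.45% of all genes, and these were HK3 and PFKFB3 below IL-1ß and SLC2A1 and ENO2 above it. Libraries with ACS lay apart from those of IL-1ß in 13 members, 8 higher, against 14.9% of all genes, and 5 lower, against 11.2% of all genes. Over the 10 comparisons 4 members were called at least once, and these were HK3, NDUFA4L2, PFKFB3 and EGLN3.

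The median log2 fold change of the 18 glycolytic enzymes was 0.03 with IL-1ß against untreated macrophages, where that of all genes was -0.07. With MSC-CM against IL-1ß the enzymes had a median of -0.10 and all genes one of 0.16, which RLE size factors moved to -0.28 and 0.00. With PRP lysate the enzymes had a median of -0.17 and all genes 0.11, moved to -0.27 and 0.02, and with ACS the values were -0.13 and 0.13, moved to -0.25 and 0.02. The medians of the 12 HIF targets outside glycolysis were 0.10 for IL-1ß against untreated macrophages, and 0.12, -0.18 and 0.08 for MSC-CM, PRP lysate and ACS against IL-1ß. With size factors the MSC-CM and ACS medians of these targets changed sign, to -0.05 and -0.03. These medians moved with the 3 libraries that stand apart. Without them the enzymes had a median of 0.04 with IL-1ß against untreated macrophages, and of -0.05, -0.21 and -0.02 for MSC-CM, PRP lysate and ACS against IL-1ß, where all genes had 0.06, 0.09, 0.02 and 0.01. Without them the 12 targets had 0.36 with IL-1ß against untreated macrophages, and -0.02, -0.46 and -0.10 for the 3 OTs against IL-1ß.

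**Figure D2:**
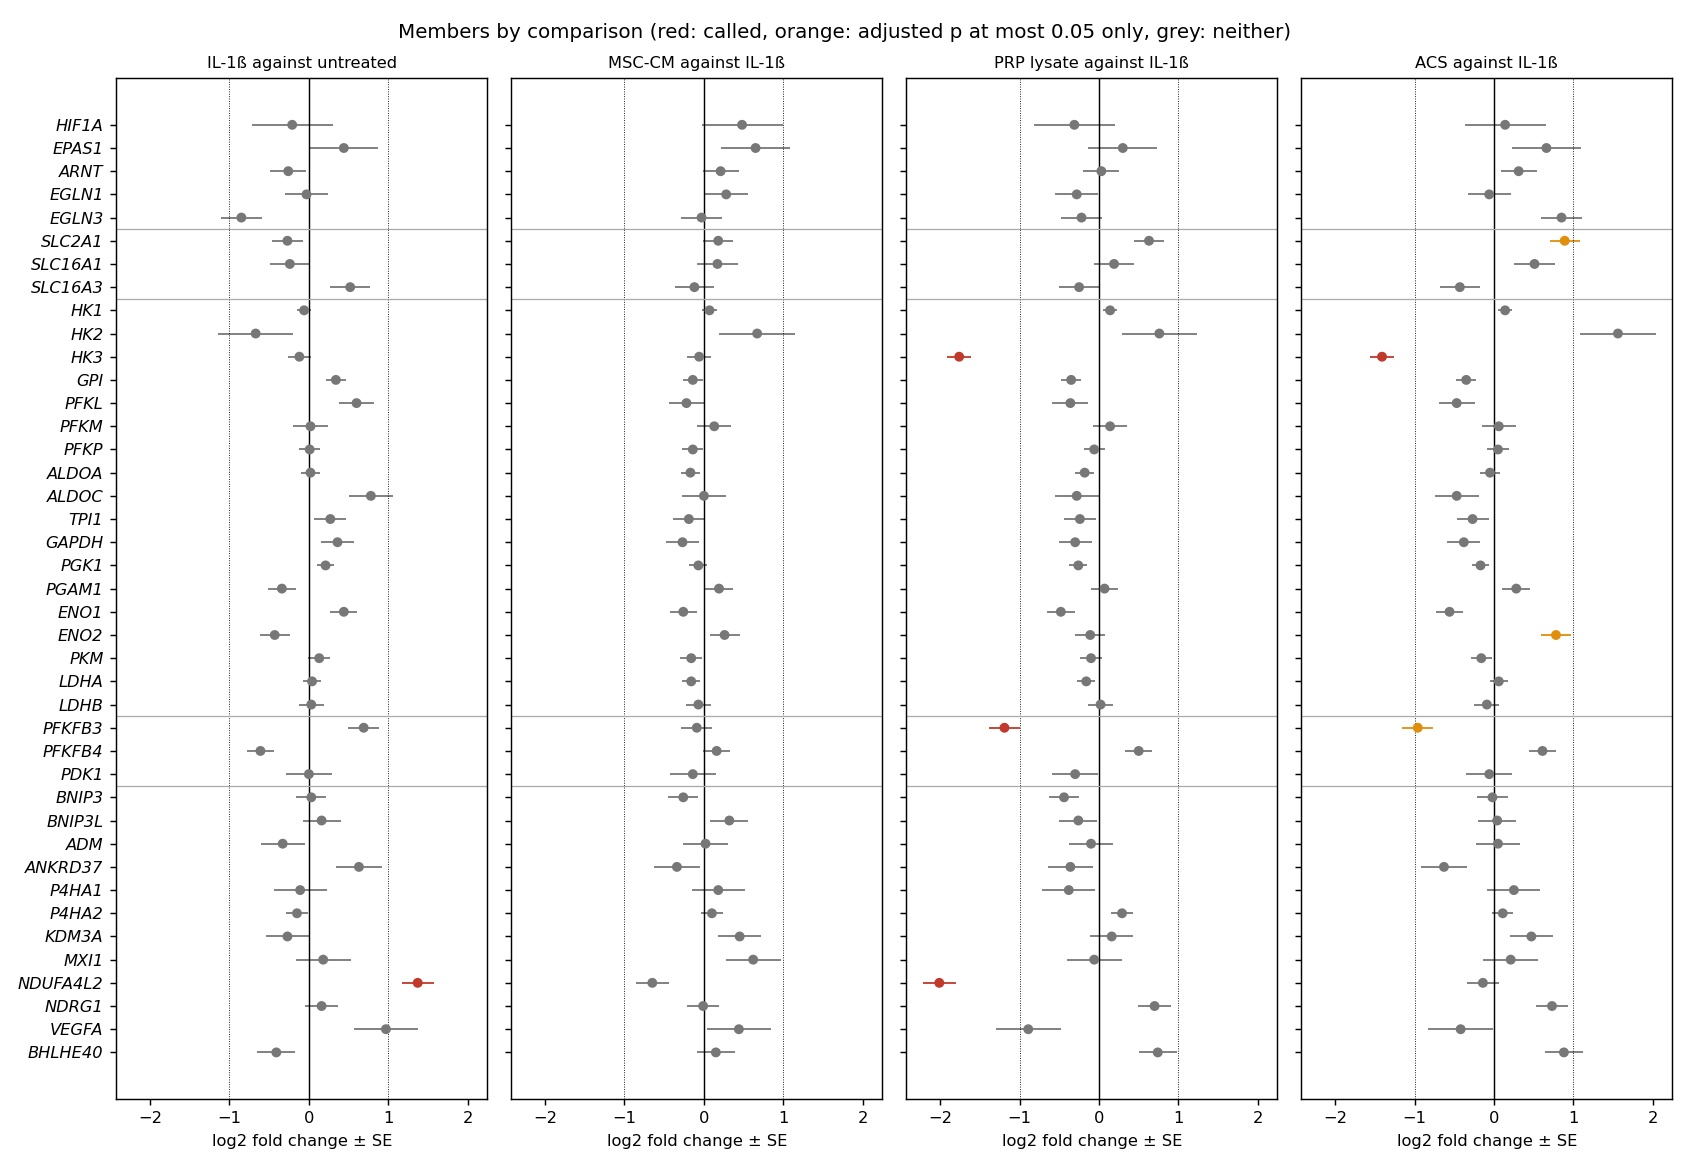
Log2 fold change with its standard error for 41 genes (rows, grouped by role) in 4 comparisons (panels), with dotted lines at a 2-fold change. Red points were called, orange points passed on adjusted p alone and grey points passed neither. The points far to the left are HK3, PFKFB3 and NDUFA4L2 with PRP lysate and HK3 with ACS, NDUFA4L2 lies to the right with IL-1ß, and no point of the MSC-CM panel is coloured.

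Among HIF and its oxygen sensors, EGLN3 was lower with IL-1ß in the presence of PRP lysate than in untreated macrophages, and the alpha subunits passed in no comparison in the fit of all 15 libraries. HIF1A (ENSECAG00000015597, chromosome 24, 8810108 to 8851491, EquCab3.0), the subunit that drives most glycolytic targets, had 375, 476 and 319 CPM in untreated macrophages and 681, 471 and 114 CPM with IL-1ß. It had 356, 439 and 641 CPM with MSC-CM, 168, 312 and 366 CPM with PRP lysate and 349, 335 and 419 CPM with ACS. All 5 conditions overlapped, and the highest and the lowest of all 15 libraries were both libraries of IL-1ß. Its log2 fold change was -0.21 ± 0.51 with IL-1ß against untreated macrophages (adjusted p = 0.848), and its direction rested on IL-1ß replicate 3. Without the libraries that stand apart HIF1A was at 0.56 with IL-1ß (adjusted p = 0.149), and its values against IL-1ß turned from 0.48 to -0.09 with MSC-CM and from 0.14 to -0.63 with ACS.

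EPAS1 (ENSECAG00000014594, chromosome 15, 53522308 to 53607803), the other alpha subunit, known from endothelial cells and macrophages, had 10.2, 15.7 and 8.72 CPM in untreated macrophages and 30.8, 19.4 and 6.09 CPM with IL-1ß. With MSC-CM it had 18.8, 28.2 and 30.0 CPM, with PRP lysate 13.8, 20.9 and 25.3 CPM and with ACS 23.5, 25.0 and 27.3 CPM. Every MSC-CM and every ACS library lay above the untreated libraries, yet the adjusted p was 0.226 and 0.49 for log2 fold changes of 1.10 and 1.10. These p-values use 1 spread shared by all 5 conditions. The SD was 12.4 CPM with IL-1ß, 6.01 CPM with MSC-CM, 1.90 CPM with ACS and 3.69 CPM in untreated macrophages. Without the 3 libraries that stand apart EPAS1 was called with IL-1ß (1.06), MSC-CM (1.30) and ACS (1.10) against untreated macrophages, the last 2 also where only those 2 groups were fitted.

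EGLN3 (ENSECAG00000005086, chromosome 1, 172908356 to 172934781), a prolyl hydroxylase whose own gene HIF induces, had 123, 111 and 116 CPM in untreated macrophages and 82.3, 69.3 and 45.8 CPM with IL-1ß. It had 53.0, 62.1 and 75.0 CPM with MSC-CM, 40.1, 65.6 and 62.4 CPM with PRP lysate and 149, 121 and 85.6 CPM with ACS. The IL-1ß, MSC-CM and PRP lysate libraries all lay below all untreated libraries, and the ACS libraries lay above all IL-1ß libraries and around the untreated ones. The difference was called for PRP lysate against untreated macrophages (log2 fold change -1.07 ± 0.256, adjusted p = 0.0446), where 1.60% of all genes were called and 2.59% passed on adjusted p alone. It did not pass for IL-1ß (-0.85, adjusted p = 0.188) or MSC-CM (-0.88, adjusted p = 0.0976) against untreated macrophages, for ACS against IL-1ß (0.85, adjusted p = 0.0966), or for PRP lysate against ACS (-1.06, adjusted p = 0.214).

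The EGLN3 call against untreated macrophages was lost in 9 of 16 alternatives, among them without any 1 of the untreated libraries, without PRP lysate replicate 1 or 3, and with no filter on low values, with a log2 fold change of -1.20 to -0.85 and an adjusted p of 0.000515 to 0.184 over all 16. Without IL-1ß replicate 1 EGLN3 was called for ACS against IL-1ß (1.02), DESeq2 called it for PRP lysate against ACS (-1.07), and size factors as well as DESeq2 called it for MSC-CM against untreated macrophages (-1.01 with DESeq2). ARNT, the shared partner, and EGLN1, the main oxygen sensor, had log2 fold changes between -0.56 and 0.31 in the 10 comparisons and passed none.

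Within this group the differences from untreated macrophages lay between -0.85 (EGLN3) and 0.44 (EPAS1) with IL-1ß, between -0.88 (EGLN3) and 1.10 (EPAS1) with MSC-CM, between -1.07 (EGLN3) and 0.74 (EPAS1) with PRP lysate and between -0.09 (EGLN1) and 1.10 (EPAS1) with ACS. Those from IL-1ß lay between -0.03 (EGLN3) and 0.65 (EPAS1) with MSC-CM, between -0.31 (HIF1A) and 0.30 (EPAS1) with PRP lysate and between -0.06 (EGLN1) and 0.85 (EGLN3) with ACS. Between the OTs the extremes were -0.79 (HIF1A) and -0.18 (ARNT) for PRP lysate against MSC-CM, -0.34 (HIF1A) and 0.87 (EGLN3) for ACS against MSC-CM and -1.06 (EGLN3) and -0.22 (EGLN1) for PRP lysate against ACS.

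**Figure D3:**
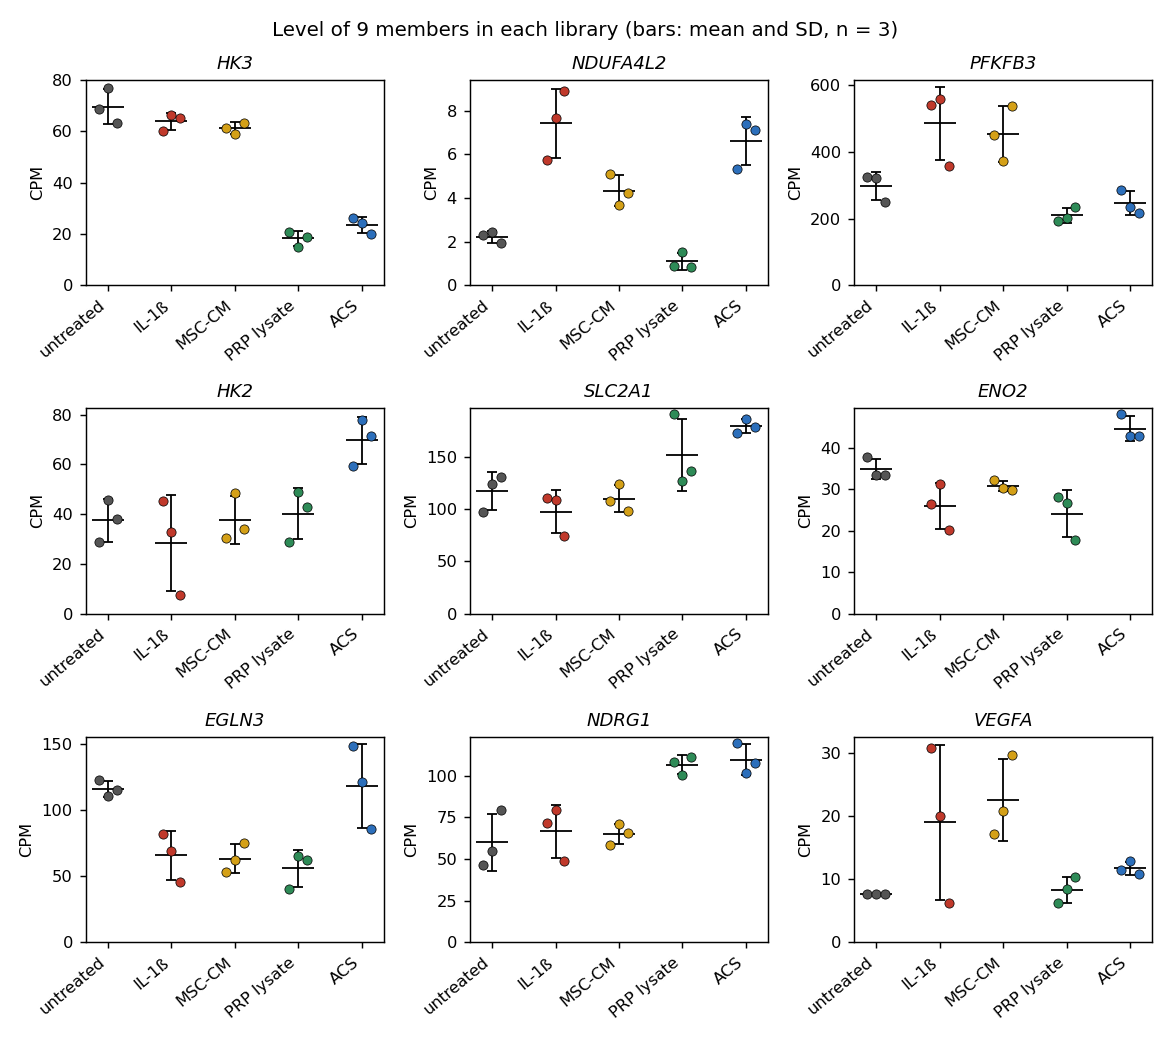
CPM of 9 genes in each of the 15 libraries (points, by condition) with the mean and SD of 3 libraries (bars), on linear axes that start at 0. HK3 separates PRP lysate and ACS from the other 3 conditions, NDUFA4L2 is lowest with PRP lysate, ENO2 and HK2 are highest with ACS, the IL-1ß points of HK2 reach from the range of untreated macrophages to well below it, and those of VEGFA lie on both sides of it.

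No glucose or lactate transporter passed with IL-1ß against untreated macrophages, and SLC2A1, the glucose carrier GLUT1 that lets glucose enter most cells, stood higher with ACS. SLC2A1 (ENSECAG00000000303, chromosome 2, 15587666 to 15615824) had 96.8, 124 and 131 CPM in untreated macrophages, 111, 108 and 74.3 CPM with IL-1ß and 108, 124 and 97.9 CPM with MSC-CM. With PRP lysate it had 191, 127 and 137 CPM and with ACS 173, 186 and 179 CPM. All PRP lysate and ACS libraries exceeded all IL-1ß and MSC-CM libraries, and the ACS libraries exceeded the untreated ones as well. Against IL-1ß the difference passed on adjusted p with ACS (log2 fold change 0.89 ± 0.191, adjusted p = 0.0231) but was under 2-fold, and with PRP lysate it did not pass (log2 fold change 0.63 ± 0.191, adjusted p = 0.0854).

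The monocarboxylate carriers SLC16A1 (MCT1) and SLC16A3 (MCT4), which move lactate and pyruvate across the membrane, passed in no comparison. SLC16A1 had group means between 106 CPM with IL-1ß and 145 CPM with ACS, and SLC16A3 between 89.7 CPM in untreated macrophages and 135 CPM with IL-1ß. In IL-1ß replicate 3 SLC16A3 reached 199 CPM, against 88.3 CPM in replicate 1.

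For the 3 transporters the differences from untreated macrophages lay between -0.27 (SLC2A1) and 0.52 (SLC16A3) with IL-1ß, -0.09 (SLC2A1) and 0.40 (SLC16A3) with MSC-CM, -0.05 (SLC16A1) and 0.36 (SLC2A1) with PRP lysate and 0.09 (SLC16A3) and 0.62 (SLC2A1) with ACS. From IL-1ß they lay between -0.12 (SLC16A3) and 0.18 (SLC2A1) with MSC-CM, -0.25 (SLC16A3) and 0.63 (SLC2A1) with PRP lysate and -0.43 (SLC16A3) and 0.89 (SLC2A1) with ACS. Between the OTs they lay between -0.13 (SLC16A3) and 0.44 (SLC2A1) for PRP lysate against MSC-CM, -0.32 (SLC16A3) and 0.71 (SLC2A1) for ACS against MSC-CM and -0.32 (SLC16A1) and 0.18 (SLC16A3) for PRP lysate against ACS.

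Of the 18 glycolytic enzymes, HK3 alone was called, lower in each comparison of PRP lysate or ACS with the other conditions. HK3 (ENSECAG00000016508, chromosome 14, 4516856 to 4530862) encodes the hexokinase best known from myeloid cells, which carries out the first step by adding phosphate to glucose. It had 68.5, 77.0 and 63.4 CPM in untreated macrophages, 60.2, 66.4 and 65.1 CPM with IL-1ß and 61.4, 59.0 and 63.4 CPM with MSC-CM. With PRP lysate it had 20.9, 15.1 and 18.8 CPM and with ACS 26.3, 24.1 and 20.1 CPM. No library of PRP lysate or ACS reached a level above 26.3 CPM, and no library of the other conditions lay under 59.0 CPM.

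The mean of HK3 was 63.9 ± 3.28 CPM (SD, n = 3) with IL-1ß, 18.3 ± 2.95 CPM with PRP lysate and 23.5 ± 3.15 CPM with ACS. Against IL-1ß the fall was called for PRP lysate (log2 fold change -1.76 ± 0.148, adjusted p = 3.15e-05) and ACS (log2 fold change -1.41 ± 0.148, adjusted p = 0.000348). It was called against MSC-CM for PRP lysate (log2 fold change -1.70 ± 0.148, adjusted p = 4.84e-05), where 2.61% of all genes were called and 4.22% passed on adjusted p alone, and for ACS (log2 fold change -1.35 ± 0.148, adjusted p = 0.000706), where 1.23% were called and 1.92% passed on adjusted p alone. Against untreated macrophages HK3 fell with PRP lysate (log2 fold change -1.88 ± 0.148, adjusted p = 3.83e-05) and with ACS (log2 fold change -1.53 ± 0.148, adjusted p = 0.00135), where 0.370% of all genes were called and 0.473% passed on adjusted p alone. Every alternative that was run kept these 6 calls. The difference between PRP lysate and ACS in HK3 did not pass (log2 fold change -0.35 ± 0.148, adjusted p = 0.842) and their libraries overlapped, and IL-1ß itself left it at -0.12 against untreated macrophages (adjusted p = 0.702).

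Markers of several cell types moved with HK3. Of the 14 macrophage markers tested, 4 were called lower with PRP lysate and 2 with ACS against IL-1ß, with medians of -0.85 and -0.25. Of all genes 3.09% and 2.21% were called in these comparisons. The summed level of the macrophage markers was 3685 to 6591 CPM with PRP lysate and 5826 to 7541 CPM with ACS, against 5926 to 8945 CPM with IL-1ß. CSF3R, which made up nearly all of the neutrophil marker sum, gave sums of 485.6 to 546 CPM with PRP lysate and 530.2 to 759 CPM with ACS, against 311 to 393 CPM with IL-1ß, and the defining neutrophil markers MPO, ELANE and LTF had means of at most 0.780 CPM. Endothelial markers summed to 63.1 to 103 CPM with PRP lysate and 119 to 153 CPM with ACS, below every library of IL-1ß (253 to 518 CPM), MSC-CM (192 to 407 CPM) and untreated macrophages (185 to 321 CPM). Of the 4 endothelial markers tested 1 was called lower with PRP lysate and 1 with ACS against IL-1ß, at medians of 0.35 and 0.19 over the list. Most of this sum was PECAM1 (mean 219 CPM), which is also known from myeloid cells, while VWF had a mean of 0.0281 CPM and KDR one of 1.55 CPM. T cell markers summed to 1088 to 1958 CPM with PRP lysate and 1057 to 1277 CPM with ACS, against 1380.1 to 1971 CPM with IL-1ß, and 0 of the 10 tested were called in either comparison.

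Platelet markers summed to 129 CPM in the lowest and 385 CPM in the median PRP lysate library, and to 214 to 317 CPM with ACS, against 33.2 to 185 CPM with IL-1ß and 101 to 154 CPM with MSC-CM. Of the 3 tested 0 were called against IL-1ß, at a median of 1.00 with PRP lysate, and 1 was called higher with PRP lysate against MSC-CM. This sum was mostly ITGB3 (mean 195 CPM), an integrin subunit also known from macrophages, while PPBP had a mean of 11.4 CPM and GP9 and GP1BA lay under 0.3 CPM in every library. NK cell markers summed to 393 to 912 CPM with PRP lysate, above all MSC-CM libraries (344 to 376 CPM), with 0 of 7 called in that comparison. For PRP lysate against MSC-CM 3 macrophage, 1 T cell and 1 endothelial marker were called lower, and for ACS against MSC-CM 1 macrophage marker was. For PRP lysate against untreated macrophages 1 NK cell and 1 platelet marker were called higher, and 3 macrophage and 1 endothelial marker lower. For ACS against untreated macrophages 1 platelet marker was called higher. Of all genes 2.61%, 1.23%, 1.60% and 0.370% were called in these comparisons, in that order. The part of these markers in the HK3 result, and in the other PRP lysate and ACS results, was not tested.

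HK2 (ENSECAG00000021905, chromosome 15, 29193598 to 29249186), the hexokinase that HIF induces and that binds mitochondria, showed its highest values with ACS. It had 28.7, 45.6 and 38.1 CPM in untreated macrophages, 45.4, 32.7 and 7.57 CPM with IL-1ß and 30.2, 48.5 and 34.0 CPM with MSC-CM. It had 28.8, 48.9 and 42.8 CPM with PRP lysate and 59.4, 77.9 and 71.6 CPM with ACS. Each ACS library exceeded all libraries of the other conditions, and the lowest value of all was that of IL-1ß replicate 3. Against IL-1ß the log2 fold change was 1.56 ± 0.474 with an adjusted p of 0.0971, and against untreated macrophages it was 0.89 (adjusted p = 0.738). Both p-values use 1 spread shared by all conditions. The SD of HK2 was 19.3 CPM with IL-1ß, 9.37 CPM with ACS and 8.45 CPM in untreated macrophages. HK2 was called for ACS against IL-1ß without IL-1ß replicate 1 (2.05) and by DESeq2 on recovered reads (1.24), and without IL-1ß replicate 3 its log2 fold change was 0.83 (adjusted p = 0.159).

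HK1, the hexokinase found in most tissues, kept group means of 435 to 479 CPM, with log2 fold changes between -0.06 and 0.14 in the 10 comparisons. With ACS against IL-1ß the 3 hexokinases stood at -1.41 for HK3, 1.56 for HK2 and 0.14 for HK1, and HK3 was the one that passed. The value of HK2 rests largely on IL-1ß replicate 3, without which it was 0.83.

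ENO2 (ENSECAG00000007386, chromosome 6, 35393335 to 35399104), an enolase best known from neurons, had 37.6, 33.5 and 33.5 CPM in untreated macrophages, 26.5, 31.3 and 20.1 CPM with IL-1ß and 32.2, 30.3 and 29.8 CPM with MSC-CM. It had 28.0, 26.6 and 17.7 CPM with PRP lysate and 48.0, 42.8 and 42.9 CPM with ACS. The ACS libraries exceeded all others, and the difference from IL-1ß passed on adjusted p but not the 2-fold limit (log2 fold change 0.78 ± 0.188, adjusted p = 0.0392). Against PRP lysate ENO2 did not pass (PRP lysate against ACS -0.88, adjusted p = 0.119), and it was called there without the 3 libraries that stand apart. ENO1, its widely expressed paralogue, had a mean of 3195 ± 793 CPM with IL-1ß and 2125 ± 126 CPM with ACS, with a log2 fold change of -0.56 that did not pass (adjusted p = 0.0995).

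LDHA (ENSECAG00000020669, chromosome 7, 88825137 to 88835126), the lactate dehydrogenase subunit that favours lactate, passed in no comparison. It had 2164, 1853 and 1769 CPM in untreated macrophages and 2029, 2105 and 1813 CPM with IL-1ß. It had 1855, 1635 and 1835 CPM with MSC-CM, 1652, 1891 and 1781 CPM with PRP lysate and 2221, 2016 and 1947 CPM with ACS. The log2 fold changes of LDHA lay between -0.22 and 0.22 in the 10 comparisons, with standard errors of 0.113, and those of LDHB lay between -0.09 and 0.11.

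The other enzymes of the trunk of the pathway, from GPI to PKM, passed in no comparison. With IL-1ß against untreated macrophages the highest value was that of ALDOC (0.78, adjusted p = 0.258), an aldolase isoform that had 17.9, 17.3 and 22.1 CPM in untreated macrophages and 26.1, 32.3 and 44.0 CPM with IL-1ß. The phosphofructokinase PFKL followed at 0.60, and ENO1, GAPDH, GPI, TPI1 and PGK1 lay between 0.21 and 0.44. In each of these 7 genes replicate 3 was the highest of the IL-1ß libraries, as for GAPDH, which had 1448, 1774 and 2578 CPM in the IL-1ß libraries and 1623, 1305 and 1471 CPM in the untreated ones.

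For IL-1ß against untreated macrophages 0 enzymes were called, with 5 at an unadjusted p under 0.05, and DESeq2 and edgeR called 0. The share of all genes at that unadjusted p is not given here, so the 5 cannot be set against a background. For MSC-CM against IL-1ß 0 were called, with 0 at an unadjusted p under 0.05, and both tools called 0. The summed level of the 18 enzymes was 16039 to 20824 CPM with IL-1ß, 15194 to 17225 CPM in untreated macrophages, 15311 to 17495 CPM with MSC-CM, 14744 to 17889 CPM with PRP lysate and 15456 to 17018 CPM with ACS. The conditions overlapped, and the highest sums with IL-1ß, MSC-CM and PRP lysate were those of the 3 libraries that stand apart.

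Values of the enzymes against untreated macrophages lay between -0.67 (HK2) and 0.78 (ALDOC) with IL-1ß, -0.18 (HK3) and 0.78 (ALDOC) with MSC-CM, -1.88 (HK3) and 0.50 (ALDOC) with PRP lysate and -1.53 (HK3) and 0.89 (HK2) with ACS. Against IL-1ß they lay between -0.27 (GAPDH) and 0.67 (HK2) with MSC-CM, -1.76 (HK3) and 0.76 (HK2) with PRP lysate and -1.41 (HK3) and 1.56 (HK2) with ACS. Between the OTs they lay between -1.70 (HK3) and 0.09 (HK2) for PRP lysate against MSC-CM, -1.35 (HK3) and 0.89 (HK2) for ACS against MSC-CM and -0.88 (ENO2) and 0.18 (ALDOC) for PRP lysate against ACS. Processed copies of GAPDH, PGK1, LDHA and other enzymes are common in mammalian genomes, and the listed interval of PGK1 lies within that of PRPS2 and that of PFKM overlaps SENP1 by 960 bases, so these values can hold reads of other genes.

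Of the kinases that set glycolytic flux, PFKFB3 fell with PRP lysate. PFKFB3 (ENSECAG00000012172, chromosome 29, 28801014 to 28910381) makes the fructose bisphosphate that switches phosphofructokinase on, and it is known as a gene that inflammatory stimuli and HIF induce in macrophages. It had 324, 321 and 248 CPM in untreated macrophages and 541, 558 and 359 CPM with IL-1ß. It had 449, 372 and 539 CPM with MSC-CM, 192, 202 and 234 CPM with PRP lysate and 287, 236 and 216 CPM with ACS. All IL-1ß and MSC-CM libraries lay above all libraries of the other conditions, and the PRP lysate libraries lay below the untreated ones.

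The difference between IL-1ß and untreated macrophages did not pass (log2 fold change 0.69 ± 0.195, adjusted p = 0.171), nor did that with MSC-CM against untreated macrophages (log2 fold change 0.60 ± 0.195, adjusted p = 0.137). The fall with PRP lysate was called against IL-1ß (log2 fold change -1.19 ± 0.195, adjusted p = 0.00304) and against MSC-CM (log2 fold change -1.10 ± 0.195, adjusted p = 0.00584). The fall with ACS passed on adjusted p against IL-1ß (log2 fold change -0.96 ± 0.195, adjusted p = 0.0181) and against MSC-CM (log2 fold change -0.87 ± 0.195, adjusted p = 0.0398), both just under 2-fold. PFKFB3 was called for ACS against IL-1ß in 8 of 15 alternatives, at -1.08 with RLE factors and at -1.16 without IL-1ß replicate 3, and also with TMM factors, DESeq2, edgeR, without the fold limit, without the 3 libraries that stand apart and without ACS replicate 1. The call without the fold limit was fixed in advance, as that setting keeps the main fit and its adjusted p. For PRP lysate the call against IL-1ß was lost only in the fit of those 2 groups alone (adjusted p = 0.105), and the call against MSC-CM was lost without MSC-CM replicate 3, where the log2 fold change was -0.97. It was also lost with the replicate number as a block over the 4 numbered conditions (-1.10, adjusted p = 0.0515), and it held with the block within MSC-CM and PRP lysate alone, a fit added after the data were seen (adjusted p = 0.00804).

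PFKFB4, an isoform of the same bifunctional enzyme, had lower values with IL-1ß. Its 3 IL-1ß libraries held 57.0, 52.6 and 50.4 CPM, below the untreated libraries at 72.8, 82.7 and 90.8 CPM, and it had 91.5, 78.4 and 75.6 CPM with ACS. Neither IL-1ß against untreated macrophages (log2 fold change -0.61 ± 0.169, adjusted p = 0.165) nor ACS against IL-1ß (log2 fold change 0.61 ± 0.169, adjusted p = 0.0739) passed. PDK1 (ENSECAG00000006213, chromosome 18, 51653341 to 51680808), a kinase that shuts pyruvate dehydrogenase and so keeps pyruvate from mitochondria, had 42.1, 54.7 and 28.4 CPM in untreated macrophages, 55.9, 46.7 and 24.9 CPM with IL-1ß and 33.7, 35.0 and 40.6 CPM with MSC-CM. With PRP lysate it had 24.8, 34.0 and 40.4 CPM and with ACS 39.8, 35.4 and 40.3 CPM, so all conditions overlapped, and its log2 fold changes lay between -0.31 and 0.08.

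Over the 3 kinases the extremes against untreated macrophages were -0.61 (PFKFB4) and 0.69 (PFKFB3) with IL-1ß, -0.45 (PFKFB4) and 0.60 (PFKFB3) with MSC-CM, -0.50 (PFKFB3) and -0.11 (PFKFB4) with PRP lysate and -0.27 (PFKFB3) and 0.00 (PFKFB4) with ACS. Against IL-1ß they were -0.14 (PDK1) and 0.16 (PFKFB4) with MSC-CM, -1.19 (PFKFB3) and 0.50 (PFKFB4) with PRP lysate and -0.96 (PFKFB3) and 0.61 (PFKFB4) with ACS. Between the OTs they were -1.10 (PFKFB3) and 0.34 (PFKFB4) for PRP lysate against MSC-CM, -0.87 (PFKFB3) and 0.45 (PFKFB4) for ACS against MSC-CM and -0.24 (PDK1) and -0.11 (PFKFB4) for PRP lysate against ACS.

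Of the 12 HIF targets outside glycolysis, NDUFA4L2 rose with IL-1ß, stayed high with ACS and fell with PRP lysate. NDUFA4L2 (ENSECAG00000023525, chromosome 6, 75826380 to 75827914) encodes a mitochondrial protein that HIF induces and that lowers oxygen use by the respiratory chain. It had 2.30, 2.44 and 1.92 CPM in untreated macrophages and 5.75, 7.66 and 8.89 CPM with IL-1ß. It had 5.10, 3.68 and 4.21 CPM with MSC-CM, 0.887, 1.53 and 0.845 CPM with PRP lysate and 5.35, 7.40 and 7.10 CPM with ACS. The PRP lysate libraries lay below every other library, and the untreated libraries lay below all of IL-1ß, MSC-CM and ACS. Its lowest library held 24 reads, so counting error is larger here than for the other members.

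NDUFA4L2 was called higher with IL-1ß (log2 fold change 1.37 ± 0.204, adjusted p = 0.0202) and with ACS (log2 fold change 1.23 ± 0.204, adjusted p = 0.0218) against untreated macrophages. It was called lower with PRP lysate against IL-1ß (log2 fold change -2.01 ± 0.204, adjusted p = 0.000117), against MSC-CM (log2 fold change -1.36 ± 0.204, adjusted p = 0.00193) and against ACS (log2 fold change -1.87 ± 0.204, adjusted p = 0.00187). In this last comparison 0.0946% of all genes were called and 0.103% passed on adjusted p alone. Markers moved with IL-1ß too. T cell markers summed to 1380.1 to 1971 CPM in the IL-1ß libraries, above all untreated libraries (1071 to 1351 CPM), with a median of 0.52, B cell markers to 27.3 to 48.6 CPM (untreated 16.0 to 23.5 CPM) and proliferation markers to 895 to 958 CPM (untreated 656 to 728 CPM), with a median of 0.36, and limma called none of these. Among the platelet markers 1 was called higher and among the endothelial markers 1 lower with IL-1ß against untreated macrophages, where 0.292% of all genes were called. Their part in the NDUFA4L2 result was not tested.

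MSC-CM libraries lay between those of untreated and of IL-1ß macrophages in NDUFA4L2, and the difference did not pass against IL-1ß (log2 fold change -0.65 ± 0.204, adjusted p = 0.705) or against untreated macrophages (log2 fold change 0.72 ± 0.204, adjusted p = 0.0909). Against untreated macrophages NDUFA4L2 did not pass with PRP lysate (log2 fold change -0.64 ± 0.204, adjusted p = 0.148), and DESeq2 called it lower there (-1.06, adjusted p = 0.0465). The calls of PRP lysate against IL-1ß and MSC-CM were kept in all 16 and all 17 alternatives run, that against ACS was lost in the fit of those 2 groups alone, and on a pseudocount of 0.1 the log2 fold change against IL-1ß was -2.88.

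The call of NDUFA4L2 with IL-1ß was lost in 6 of 16 alternatives, including the fits without IL-1ß replicate 2 and without any 1 of the untreated libraries, with log2 fold changes of 1.25 to 1.82 and adjusted p of 1.14e-05 to 0.472 over all 16. That with ACS against untreated macrophages was lost in 7 of 15, including each fit that left out 1 library of either condition, with log2 fold changes of 1.16 to 1.53.

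VEGFA (ENSECAG00000009402, chromosome 20, 43590763 to 43655398), the vascular growth factor that HIF induces, had 7.66, 7.62 and 7.64 CPM in untreated macrophages and 30.9, 20.1 and 6.29 CPM with IL-1ß. It had 17.2, 20.8 and 29.8 CPM with MSC-CM, 6.18, 8.42 and 10.3 CPM with PRP lysate and 11.4, 12.9 and 10.8 CPM with ACS. The MSC-CM and ACS libraries lay above all untreated ones, while IL-1ß replicate 3 lay below them and the other IL-1ß libraries well above. No comparison of VEGFA passed, with 0.97 ± 0.407 for IL-1ß (adjusted p = 0.334) and 1.41 for MSC-CM (adjusted p = 0.0955) against untreated macrophages and -1.33 for PRP lysate against MSC-CM (adjusted p = 0.095). VEGFA was called higher with IL-1ß against untreated macrophages by DESeq2 (1.30, adjusted p = 0.0294), without IL-1ß replicate 3, and without the 3 libraries that stand apart (1.58, adjusted p = 0.00160). DESeq2 also called VEGFA lower with PRP lysate against IL-1ß (-1.24, adjusted p = 0.0187) and against MSC-CM (-1.37, adjusted p = 0.00690). Without the 3 libraries that stand apart it was called lower with PRP lysate (-1.33, adjusted p = 0.00186) and with ACS against IL-1ß, and lower with both against MSC-CM. In MSC-CM against untreated macrophages, where 0.662% of all genes were called and 1.92% passed on adjusted p alone, 0 members were called, with 8 at an unadjusted p under 0.05, 0 by edgeR and 2 by DESeq2, which were VEGFA and EGLN3. The 8 likewise stand without the share of all genes at that unadjusted p.

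NDRG1, a gene of cell stress and differentiation that hypoxia induces, had its highest values with PRP lysate and ACS. It had 46.1, 54.6 and 79.4 CPM in untreated macrophages, 71.7, 79.7 and 49.0 CPM with IL-1ß and 58.6, 70.8 and 65.4 CPM with MSC-CM. It had 108, 100.3 and 111 CPM with PRP lysate and 119.7, 101 and 108 CPM with ACS, each above all libraries of the other conditions. The difference from untreated macrophages passed on adjusted p with PRP lysate (log2 fold change 0.85 ± 0.204, adjusted p = 0.0452) without reaching 2-fold, and with ACS it did not pass (log2 fold change 0.89 ± 0.204, adjusted p = 0.0991). Without untreated replicate 3 NDRG1 was called with PRP lysate, at 1.07. Against IL-1ß it was 0.70 with PRP lysate (adjusted p = 0.0758) and 0.73 with ACS (adjusted p = 0.073).

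BHLHE40, a transcriptional repressor of myeloid and circadian programs, passed in no comparison. It had 805, 1032 and 1258 CPM in untreated macrophages, which overlapped the PRP lysate and ACS libraries, and 966, 907 and 505 CPM with IL-1ß, 1328, 1229 and 1253 CPM with PRP lysate and 1165, 1479.7 and 1614 CPM with ACS, and the log2 fold changes against IL-1ß were 0.74 (adjusted p = 0.106) and 0.88 (adjusted p = 0.0624). BHLHE40 was called for ACS without IL-1ß replicate 1, at 1.05.

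BNIP3 (ENSECAG00000017458, chromosome 1, 1830388 to 1843977), a receptor that marks mitochondria for removal, had 93.8, 85.2 and 69.6 CPM in untreated macrophages, 89.5, 99.1 and 67.3 CPM with IL-1ß and 67.4, 60.0 and 85.6 CPM with MSC-CM. It had 52.7, 72.0 and 62.1 CPM with PRP lysate and 95.2, 80.6 and 75.4 CPM with ACS. The PRP lysate libraries lay below those of ACS, and no comparison passed (PRP lysate against IL-1ß -0.44, adjusted p = 0.244). ADM (ENSECAG00000024531, chromosome 7, 81595283 to 81606617), the vasodilator peptide adrenomedullin, was scarce, with 3.40, 4.65 and 3.67 CPM in untreated macrophages and 1.75, 2.71 and 4.77 CPM with IL-1ß. It had 1.93, 4.01 and 3.23 CPM with MSC-CM, 3.68, 2.34 and 2.08 CPM with PRP lysate and 2.89, 3.13 and 3.03 CPM with ACS, and its log2 fold changes lay between -0.42 and 0.05.

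The remaining targets, BNIP3L, ANKRD37, P4HA1, P4HA2, KDM3A and MXI1, passed in no comparison. MXI1, an antagonist of MYC, had the highest value among them against untreated macrophages with MSC-CM (0.80, adjusted p = 0.277). P4HA1, a collagen prolyl hydroxylase, and KDM3A, a histone demethylase, were lowest in IL-1ß replicate 3 and PRP lysate replicate 1, as 100.5, 90.7 and 36.6 CPM in the IL-1ß libraries and 36.9, 62.5 and 65.0 CPM in the PRP lysate libraries for P4HA1 show. The listed interval of P4HA2 overlaps CSF2 by 2370 bases and ACSL6 by 44722 bases, so its reads may not all be its own.

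Among the 12 targets the extremes against untreated macrophages were -0.41 (BHLHE40) and 1.37 (NDUFA4L2) with IL-1ß, -0.30 (ADM) and 1.41 (VEGFA) with MSC-CM, -0.64 (NDUFA4L2) and 0.85 (NDRG1) with PRP lysate and -0.28 (ADM) and 1.23 (NDUFA4L2) with ACS. Against IL-1ß they were -0.65 (NDUFA4L2) and 0.62 (MXI1) with MSC-CM, -2.01 (NDUFA4L2) and 0.74 (BHLHE40) with PRP lysate and -0.63 (ANKRD37) and 0.88 (BHLHE40) with ACS. Between the OTs they were -1.36 (NDUFA4L2) and 0.71 (NDRG1) for PRP lysate against MSC-CM, -0.86 (VEGFA) and 0.75 (NDRG1) for ACS against MSC-CM and -1.87 (NDUFA4L2) and 0.27 (ANKRD37) for PRP lysate against ACS.

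The direct comparisons of the OTs address whether the products differ in their effect on IL-1ß activated macrophages. PRP lysate parted from MSC-CM in HK3, PFKFB3 and NDUFA4L2, and ACS parted from MSC-CM in HK3, with PFKFB3 on adjusted p alone. PRP lysate and ACS, which both lowered HK3, were parted by NDUFA4L2, of which the means were 1.09 ± 0.384 CPM and 6.62 ± 1.11 CPM. Each of these libraries also held IL-1ß, and the OTs were compared at the same share of the medium.

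**Figure D4:**
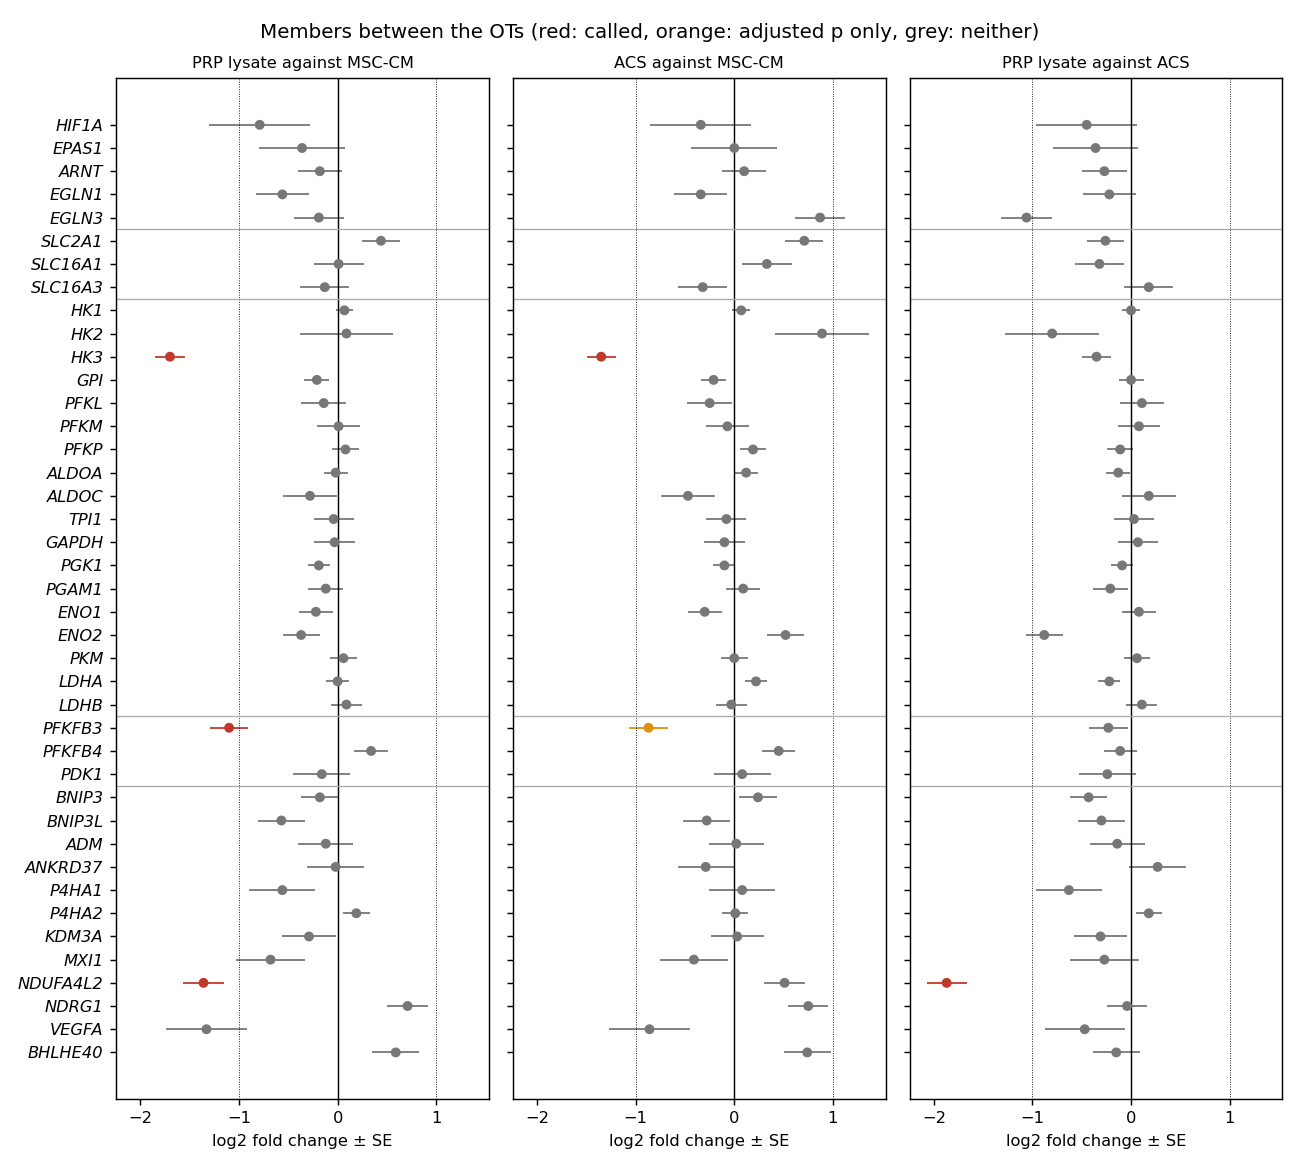
Log2 fold change with its standard error for 41 genes (rows, grouped by role) in the 3 comparisons between OTs (panels), with dotted lines at a 2-fold change. Red points were called, orange points passed on adjusted p alone and grey points passed neither. HK3 is called against MSC-CM in both panels, NDUFA4L2 in both PRP lysate panels, and PFKFB3 is red for PRP lysate and orange for ACS against MSC-CM.

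Other genes of the same pathways give the setting of these members. Of 27 further genes known to be induced by hypoxia, 1 was called with IL-1ß against untreated macrophages, where 0.292% of all genes were called. Against IL-1ß 3 were called with PRP lysate, 3 with ACS and 0 with MSC-CM, where 3.09%, 2.21% and 0% of all genes were called. The zero with MSC-CM stood at 0 of these genes with an unadjusted p under 0.05 and 0 by DESeq2 and edgeR. DDIT4, an inhibitor of mTOR that also answers other stresses, had 11.8, 10.6 and 11.3 CPM in untreated macrophages, 49.0, 56.2 and 59.0 CPM with IL-1ß and 44.0, 47.5 and 48.7 CPM with MSC-CM. With PRP lysate it had 18.7, 12.1 and 13.4 CPM and with ACS 15.4, 11.2 and 10.8 CPM. Its fall was called with PRP lysate (log2 fold change -1.84 ± 0.179, adjusted p = 9.7e-05) and with ACS (log2 fold change -2.06 ± 0.179, adjusted p = 7.72e-05) against IL-1ß.

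ANGPTL4, a secreted inhibitor of lipoprotein lipase, had 52.5, 80.1 and 124 CPM with IL-1ß, 240.4, 256 and 333 CPM with PRP lysate and 111, 155 and 181 CPM with ACS, and it rose with PRP lysate (log2 fold change 1.75 ± 0.3, adjusted p = 0.00389). VLDLR, a lipoprotein receptor, had 68.0, 49.9 and 21.6 CPM with IL-1ß, 77.3, 119 and 112 CPM with PRP lysate and a mean of 105 ± 3.68 CPM (SD, n = 3) with ACS. It rose with PRP lysate (log2 fold change 1.25 ± 0.313, adjusted p = 0.0367) and ACS (log2 fold change 1.30 ± 0.313, adjusted p = 0.0384) against IL-1ß, where IL-1ß replicate 3 was the lowest library. FLT1, a receptor of vascular growth factors, had 36.0, 22.5 and 12.8 CPM with IL-1ß and 95.2, 78.6 and 57.2 CPM with ACS, and it rose with ACS (log2 fold change 1.74 ± 0.374, adjusted p = 0.0237). HILPDA, a protein of lipid droplets, passed on adjusted p with PRP lysate (log2 fold change 0.82 ± 0.175, adjusted p = 0.0163), and PLOD1, a collagen lysyl hydroxylase, was lower (log2 fold change -0.88 ± 0.194, adjusted p = 0.0186). Against MSC-CM, PRP lysate raised ANGPTL4 (log2 fold change 2.37 ± 0.3, adjusted p = 0.000641) and HILPDA (log2 fold change 1.15 ± 0.175, adjusted p = 0.00219) and lowered DDIT4 (log2 fold change -1.62 ± 0.179, adjusted p = 0.000287). ACS against MSC-CM raised ANGPTL4 (log2 fold change 1.46 ± 0.3, adjusted p = 0.0253) and lowered DDIT4 (log2 fold change -1.84 ± 0.179, adjusted p = 0.000293), with HILPDA on adjusted p alone (log2 fold change 0.92 ± 0.175, adjusted p = 0.0172). DDIT4 stood higher with MSC-CM against untreated macrophages (log2 fold change 1.97 ± 0.179, adjusted p = 0.000452). In PRP lysate against ACS and in ACS against untreated macrophages, limma, DESeq2 and edgeR called 0 of the 27, with 4 and 2 at an unadjusted p under 0.05. Of all genes limma called 0.0946% and 0.370% there. Against MSC-CM it called 2.61% of all genes with PRP lysate and 1.23% with ACS, and for MSC-CM against untreated macrophages 0.662%. With PRP lysate, genes of this list thus rose and fell in the same condition.

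The calls of these further genes were recomputed under the same alternatives, which was decided after the data were seen. Against IL-1ß the VLDLR calls were lost in 8 of 16 alternatives with PRP lysate (0.78 to 1.59) and in 8 of 15 with ACS (0.83 to 1.64), both among others on leaving out IL-1ß replicate 2 or 3 or the 3 libraries that stand apart. The FLT1 call with ACS was lost in 6 of 15, namely in the fit of those 2 groups alone and without IL-1ß replicate 2, IL-1ß replicate 3 or any 1 of the ACS libraries. The ANGPTL4 call for ACS against MSC-CM was lost in 5 of 15, without any 1 of the MSC-CM libraries or without ACS replicate 2 or 3, and the HILPDA call for PRP lysate against MSC-CM without PRP lysate replicate 2. ANGPTL4 with PRP lysate against IL-1ß and DDIT4 with IL-1ß against untreated macrophages were lost only where those 2 groups were fitted alone. The DDIT4 calls with PRP lysate and ACS against IL-1ß and against MSC-CM, that of DDIT4 with MSC-CM against untreated macrophages, and that of ANGPTL4 for PRP lysate against MSC-CM held in every alternative run.

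Of 9 further HIF regulators tested, 0 were called in the 10 comparisons, where 0% to 3.09% of all genes were called. HIF3A, an inhibitory alpha subunit, passed on adjusted p with PRP lysate against IL-1ß (log2 fold change 0.48 ± 0.127, adjusted p = 0.0454). DESeq2 and edgeR also called 0 of the 9, and at an unadjusted p under 0.05 the count was 0 to 2 per comparison. Of 15 further genes of glycolysis and gluconeogenesis, FBP1 was called higher with ACS against IL-1ß (log2 fold change 1.29 ± 0.291, adjusted p = 0.03) and against MSC-CM (log2 fold change 1.32 ± 0.291, adjusted p = 0.0361). Of all genes 2.21% and 1.23% were called in these comparisons. FBP1 encodes the bisphosphatase that works against phosphofructokinase, and it had 815, 805 and 1231 CPM in untreated macrophages, 464, 504 and 943 CPM with IL-1ß and 1726, 1579 and 1178 CPM with ACS, so IL-1ß replicate 3 stood well above the other IL-1ß libraries. DESeq2 called FBP1 against MSC-CM and not against IL-1ß, and edgeR called it in neither comparison. The FBP1 call was lost in 9 of 15 alternatives against IL-1ß, among them without IL-1ß replicate 2, and in 10 of 15 against MSC-CM, among them without any 1 of the MSC-CM libraries, and in both comparisons with RLE factors, TMM factors and without any 1 of the ACS libraries. The other 14 genes passed in no comparison by limma, and DESeq2 and edgeR called PDK4, a kinase that shuts pyruvate dehydrogenase, higher with ACS against IL-1ß, as DESeq2 did with PRP lysate.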

How the data were processed

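Gene expression was measured by RNA sequencing in 15 libraries of equine macrophages. Reads were trimmed (cutadapt), aligned (STAR 2.7.3, EquCab3.0) and counted on genes (HTSeq) in Partek Flow, per the labels and the study's methods, and the authors deposited the values as CPM, counts scaled to the library total. The strand setting of the counting is not given in the sources used here, so reads of overlapping genes cannot be told apart. Column sums were 982495 to 991421. Of all values 99.5% lay within 0.05 of a whole read, which gave 28410735 to 47894068 reads per library, and these recovered reads were used for DESeq2 1.42.0, which called 2 to 694 genes a comparison, and edgeR 4.0.16, which called 0 to 388. 

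The test was limma 3.58.1 (R 4.3.3) with an intensity trend on log2(CPM + 1), over the 11628 of 16932 genes whose mean reached 1 CPM, in 1 model of 15 libraries and 5 conditions, with no replicate block. All 5 conditions shared 1 spread per gene, so a condition with a wide spread enters the p-values of comparisons without it. By the numbers in the sample titles, the deviations of same-numbered MSC-CM and PRP lysate libraries from their group means correlated at 0.63, 0.26 and 0.42. The highest correlation with a different number was -0.53, 0.39 and 0.47, so for replicates 2 and 3 another library matched more closely. The value of 0.63 joins MSC-CM replicate 1 and PRP lysate replicate 1, which both stand apart. The numbers were used as pairs only in the block fits, and the labels name no shared donor. The limma test was two-sided, with Benjamini-Hochberg adjustment within each of 10 comparisons. A fold change on this scale understates the change of low genes. Comparisons that share a condition are not independent. Genes were called at an adjusted p of at most 0.05 and at least a 2-fold change. Counts at an unadjusted p under 0.05 are given without the share of all genes, so they cannot be set against a background. The scripts were tested on simulated data.

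The members, role lists and pathway lists were chosen with earlier results of these data known. Values in every library were given for each member called in any comparison and for HIF1A, EPAS1, EGLN3, SLC2A1, HK2, PFKFB3, LDHA, PDK1, BNIP3, ADM and VEGFA, and the members with an adjusted p of at most 0.05 and the extremes of each role list were named per comparison. Other members shown by library were picked after their values were seen. Alternatives were a pseudocount of 0.1, no filter, RLE and TMM factors, DESeq2, edgeR, only the 2 groups compared, no fold threshold, leaving out each library, leaving out the 3 that stand apart, and the replicate number as a block over the 4 numbered conditions. The setting with no fold threshold keeps the main fit, so its calls are the genes that pass on adjusted p alone. A block within MSC-CM and PRP lysate alone, and the alternatives for the further pathway genes, were added after the data were seen. Figures were drawn with matplotlib 3.10.9. The values of 1 gene of the pathway lists are not reported here.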

Additional observations from a re-analysis of the deposited data

Results flagged for a closer look

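Each OT was added on top of the same IL-1ß stimulus, so an OT's effect against IL-1ß can be set against that of another OT, and 5 such differences passed the test of the difference itself in limma. The PRP lysate effect lay below the MSC-CM effect in HK3 (log2 fold change -1.70, adjusted p = 4.84e-05), in PFKFB3 (-1.10, adjusted p = 0.00584) and in NDUFA4L2 (-1.36, adjusted p = 0.00193), and in each gene all 3 PRP lysate libraries lay below all 3 MSC-CM libraries. The PFKFB3 difference did not pass without MSC-CM replicate 3 (-0.97, under 2-fold) or with the replicate number as a block over the 4 numbered conditions (-1.10, adjusted p = 0.0515). The ACS effect lay below the MSC-CM effect in HK3 (-1.35, adjusted p = 0.000706), again in 3 of 3 libraries. PRP lysate lay below ACS in NDUFA4L2 (-1.87, adjusted p = 0.00187) in 3 of 3 libraries. Groups of 3 libraries are too small for a range test of single outlying values, which was not run, and the 3 libraries that stand apart were told by the first principal component over all genes.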

How the results depend on the processing

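The precision is limited by 3 libraries per condition. NDUFA4L2 and ADM, with few reads per library, carry the most counting error among the members named. The HK3 calls held under every alternative run in all 6 comparisons, as did those of NDUFA4L2 for PRP lysate against IL-1ß and against MSC-CM, and the number of members called stayed within 1.5-fold in every alternative for MSC-CM against IL-1ß (0), PRP lysate against IL-1ß (3, leaving out 1 library 3 to 4) and PRP lysate against MSC-CM (3, leaving out 1 library 2 to 3). The causes of the changes below were not tested, except that leaving libraries out or fitting 2 groups alone lowers the number of samples.

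The number of members called changed as follows. For IL-1ß against untreated macrophages it went from 1 to 2 with DESeq2, 0 with only the 2 groups fitted, 3 without the 3 libraries that stand apart (EPAS1, NDUFA4L2 and VEGFA), and 0 to 2 on leaving out 1 library. For ACS against IL-1ß it went from 1 to 2 with RLE factors, TMM factors and edgeR, 3 with DESeq2, 4 with no fold threshold, 3 without the libraries that stand apart (HK3, PFKFB3 and VEGFA), and 1 to 4 on leaving out 1 library, with 4 without IL-1ß replicate 1 (BHLHE40, EGLN3, HK2 and HK3). For ACS against MSC-CM it was 2 with no fold threshold, 2 without the libraries that stand apart, and 1 to 2 on leaving out 1 library, with 2 without MSC-CM replicate 2. For PRP lysate against ACS it was 2 with DESeq2, 0 with only the 2 groups fitted and 2 without the libraries that stand apart. For MSC-CM against untreated macrophages it went from 0 to 1 with RLE factors and to 2 with DESeq2, with only the 2 groups fitted and without the libraries that stand apart. For PRP lysate against untreated macrophages it fell from 2 to 1 with no filter on low values, with only the 2 groups fitted, and without the libraries that stand apart, was 1 to 2 on leaving out 1 library, and was 3 with DESeq2 (EGLN3, HK3 and NDUFA4L2) and with no fold threshold (EGLN3, HK3 and NDRG1). For ACS against untreated macrophages it was 1 with edgeR, 3 (with EPAS1 added) with only the 2 groups fitted and without the libraries that stand apart, and 1 to 2 on leaving out 1 library. Calls over all genes changed too, from 34 with limma to 173 with DESeq2 for IL-1ß against untreated macrophages, and from 257 to 574 for ACS against IL-1ß. They went from 11 to 61 for PRP lysate against ACS. Against untreated macrophages they went from 77 to 171 for MSC-CM and from 186 to 320 for PRP lysate. With edgeR 242 genes were called for ACS against IL-1ß and 21, against 43 with limma, for ACS against untreated macrophages. Totals for the other alternatives are not given.

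Same-numbered libraries of the untreated, IL-1ß, MSC-CM and PRP lysate conditions had correlations of -0.77 to 0.63 in their deviations from the group means, over 0.1 in 11 of 18 pairs. All 3 correlations were over 0.1 for MSC-CM with PRP lysate, and 1 or 2 of 3 for each other pair of conditions. For MSC-CM with PRP lysate, replicates 2 and 3 correlated more with a differently numbered library (0.39 and 0.47) than with the same number (0.26 and 0.42). The numbers are thus not shown to be pairs. With the replicate number as a block over these 4 conditions the members called went from 1 to 0 for IL-1ß against untreated macrophages, from 3 to 2 for PRP lysate against MSC-CM and from 2 to 1 for PRP lysate against untreated macrophages, the calls lost being those of NDUFA4L2, PFKFB3 and EGLN3, and the block changed no other call of a member. The block within MSC-CM and PRP lysate alone, added after the data were seen, kept all 3 members called. No paired analysis was possible for ACS because its titles carry no number.

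Without the 3 libraries that stand apart 58 of the 410 log2 fold changes of the 41 members over the 10 comparisons changed sign, none of them called, with 11 in IL-1ß against untreated macrophages, 9 in MSC-CM against IL-1ß and in PRP lysate against ACS, and 0 to 7 in the others. Among the members with the largest rise or fall of a role list these were HK2 for IL-1ß against untreated macrophages (0.06), SLC16A3 for MSC-CM against IL-1ß (0.16) and PRP lysate against ACS (-0.02), EPAS1 for PRP lysate against IL-1ß (-0.09), ALDOC for PRP lysate against ACS (-0.17) and SLC16A1 for PRP lysate against untreated macrophages (0.18). PFKFB4 also changed sign in PRP lysate against ACS and in PRP lysate against untreated macrophages. In both it was the upper extreme of the kinases at -0.11. As it did not rise there, the counts that close this paragraph leave it out. For PFKFB4 in MSC-CM against IL-1ß the value was -0.01 with RLE factors and -0.02 with DESeq2. On leaving out 1 library the values ranged from -0.02 to 1.06 for EPAS1 and -1.15 to 0.06 for HK2 in IL-1ß against untreated macrophages. In MSC-CM against IL-1ß they ranged from -0.26 to 0.15 for EGLN3, 0 to 0.28 for SLC2A1, -0.38 to 0.20 for SLC16A3, -0.06 to 1.16 for HK2 and -0.48 to 0.09 for PDK1. In PRP lysate against IL-1ß they ranged from -0.32 to 0.76 for EPAS1, -1.08 to 0.20 for HIF1A and -0.51 to 0.07 for SLC16A3, and in ACS against IL-1ß from -0.43 to 0.21 for EGLN1. They ranged from -0.07 to 0.31 for HK2 in PRP lysate against MSC-CM, from -0.02 to 0.30 for SLC16A3 and -0.17 to 0.37 for ALDOC in PRP lysate against ACS, and from -0.21 to 0.18 for SLC16A1 in PRP lysate against untreated macrophages. Among values of the members named per comparison 1404 kept direction and call, 32 gained a call, 26 lost one and 30 changed sign.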

Other observations

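Of 22 genes of the Krebs cycle and itaconate synthesis, ACO1 was called. It was called with PRP lysate against IL-1ß, MSC-CM and untreated macrophages, where 3.09%, 2.61% and 1.60% of all genes were called. ACO1, the cytosolic aconitase that turns into an iron regulator when iron is short, had 267, 274 and 216 CPM in untreated macrophages, 316, 293 and 243 CPM with IL-1ß, 94.5, 129.6 and 115 CPM with PRP lysate and 178, 153 and 156 CPM with ACS. It fell with PRP lysate against IL-1ß (log2 fold change -1.32 ± 0.173, adjusted p = 0.000639), against MSC-CM (log2 fold change -1.15 ± 0.173, adjusted p = 0.00193) and against untreated macrophages (log2 fold change -1.15 ± 0.173, adjusted p = 0.00314) in limma, and passed on adjusted p with ACS against IL-1ß (log2 fold change -0.80 ± 0.173, adjusted p = 0.0242). The ACO1 call was lost without MSC-CM replicate 3 for PRP lysate against MSC-CM (log2 fold change -0.99), in the fit of those 2 groups alone against IL-1ß and against untreated macrophages, and with the replicate block against untreated macrophages. IDH2, a mitochondrial dehydrogenase of the cycle, passed on adjusted p with PRP lysate against IL-1ß (log2 fold change -0.64 ± 0.146, adjusted p = 0.0217).

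Of 6 genes of the pentose phosphate pathway, which branches off glycolysis, limma called 0, where it called 0% to 3.09% of all genes per comparison. RPIA, an isomerase of its sugar phosphates, passed on adjusted p, higher with MSC-CM against untreated macrophages (log2 fold change 0.69 ± 0.135, adjusted p = 0.032) and lower with ACS against MSC-CM (log2 fold change -0.79 ± 0.135, adjusted p = 0.00866). Of 9 glycogen genes 0 were called by limma, DESeq2 or edgeR in any comparison, with 0 to 2 per comparison at an unadjusted p under 0.05. For the pentose phosphate pathway DESeq2 and edgeR also called 0, with 0 to 3 per comparison at an unadjusted p under 0.05.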
